A study of Mus musculus with 7 samples.

Results

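Genome positions shared by β-catenin and Pygo2 were taken from chromatin immunoprecipitation with sequencing (ChIP-seq) on branchial arches of mouse embryos, stage 10.5 dpc. A shared position is a peak of the β-catenin list that overlaps a peak of the Pygo2 list by at least 1 bp, and 273 of 1079 β-catenin peaks were such positions. They were selected on the deposited peak coordinates of both lists, so the overlap itself and its width are given as a description with no test. The places in the lists are also given as a description with no test. The share was 25.3% of the β-catenin list, and the same positions made up 3.82% of the 7150 Pygo2 peaks. The series holds 7 libraries, which are ChIP for β-catenin and for Pygo2 in BA1 and in BA2, input of both, and 1 IgG library (BA1, labelled as pre-immune serum). The labels name wild-type tissue and wild-type protein. Used here are β-catenin BA2 and Pygo2 BA2, whose peaks the authors called with IgG BA1 as control, as the file headers state. The labels do not say what BA1 and BA2 stand for. Arches of many embryos were pooled (circa 250 embryos for 8 samples in the design text), so a library stands for a pool and not for an embryo. Each protein has 1 library in the lists used here, and no value has a replicate error. Intervals are 95% Wilson intervals that cover counting error only. The peaks rest on few tags, on average 14.6 of 13672937 tags in a β-catenin peak and 15.5 of 15009636 tags in a Pygo2 peak. Both lists share their IgG control, and the part of that control in the overlap was not tested.

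In canonical Wnt signalling, a Wnt ligand at the cell surface stops the degradation of β-catenin, which then enters the nucleus and binds TCF/LEF proteins on DNA. Bcl9 proteins bind β-catenin and also hold Pygo proteins, whose PHD finger reads methylated histone H3, so that a chain of adaptors can form at target genes. In branchial arches, from which the jaws, neck and great arteries form, Wnt signals act on neural crest, on the pharyngeal epithelium and on progenitors of the cardiac outflow tract. Smad6, Cited2, Snai2, Axin2 and Lef1 are genes of these processes that had a shared position nearest to them.

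The upstream sequences of genes whose start site window met a shared position are shown for the Wnt, heart and histone genes to which the results return below. They are the 250 bases before the annotated start, 5′ to 3′ on the gene's own strand, from RefSeq (GRCm38.p6). In the sequences of Crip2 and the histone genes, capitals mark the bases that lay inside both the β-catenin and the Pygo2 peak.
Crip2 (chr12:113139986-113140235, plus strand): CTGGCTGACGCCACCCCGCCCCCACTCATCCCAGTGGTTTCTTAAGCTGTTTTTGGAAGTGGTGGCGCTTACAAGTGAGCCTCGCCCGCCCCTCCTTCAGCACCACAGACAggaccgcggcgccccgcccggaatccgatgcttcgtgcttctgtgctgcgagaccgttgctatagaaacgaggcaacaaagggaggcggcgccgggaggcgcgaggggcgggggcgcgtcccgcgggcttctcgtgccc
H4c3 (chr13:23698459-23698708, minus strand): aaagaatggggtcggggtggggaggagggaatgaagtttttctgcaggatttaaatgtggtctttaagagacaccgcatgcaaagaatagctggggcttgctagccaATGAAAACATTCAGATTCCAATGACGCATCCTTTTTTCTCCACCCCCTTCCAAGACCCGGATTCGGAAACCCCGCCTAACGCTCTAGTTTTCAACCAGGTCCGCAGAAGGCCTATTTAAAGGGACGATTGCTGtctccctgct
H3c8 (chr13:23535168-23535417, plus strand): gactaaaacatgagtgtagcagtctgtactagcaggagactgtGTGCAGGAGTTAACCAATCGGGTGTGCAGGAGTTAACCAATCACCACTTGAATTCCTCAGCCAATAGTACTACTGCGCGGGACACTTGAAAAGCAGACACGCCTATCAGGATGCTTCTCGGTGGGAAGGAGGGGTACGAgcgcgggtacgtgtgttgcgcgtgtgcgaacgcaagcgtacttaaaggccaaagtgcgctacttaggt
H2ac11 (chr13:22042950-22043199, minus strand): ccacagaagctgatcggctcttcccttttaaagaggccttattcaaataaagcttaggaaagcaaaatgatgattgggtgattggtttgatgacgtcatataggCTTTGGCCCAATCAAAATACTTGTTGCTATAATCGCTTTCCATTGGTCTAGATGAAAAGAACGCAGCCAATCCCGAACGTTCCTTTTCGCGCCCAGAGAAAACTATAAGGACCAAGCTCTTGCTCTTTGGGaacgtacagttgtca
H4c11 (chr13:21734784-21735033, plus strand): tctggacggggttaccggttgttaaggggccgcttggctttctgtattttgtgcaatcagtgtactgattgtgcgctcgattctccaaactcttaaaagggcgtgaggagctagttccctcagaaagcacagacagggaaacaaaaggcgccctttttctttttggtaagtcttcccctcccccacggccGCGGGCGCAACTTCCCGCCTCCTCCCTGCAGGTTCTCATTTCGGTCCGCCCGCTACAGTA
H4c12 (chr13:21750554-21750803, minus strand): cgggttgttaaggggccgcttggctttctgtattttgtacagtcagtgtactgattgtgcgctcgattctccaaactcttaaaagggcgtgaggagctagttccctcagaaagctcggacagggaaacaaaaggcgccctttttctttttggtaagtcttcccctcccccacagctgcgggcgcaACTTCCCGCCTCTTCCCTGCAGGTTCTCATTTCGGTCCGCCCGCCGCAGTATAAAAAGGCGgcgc
At Axin2 and Smad6 the bases inside both peaks lay downstream of the start, so capitals mark matches to GGGCGG on either strand, the core of Sp and KLF sites, with 2 matches at Axin2 and 4 at Smad6.
Axin2 (chr11:108920099-108920348, plus strand): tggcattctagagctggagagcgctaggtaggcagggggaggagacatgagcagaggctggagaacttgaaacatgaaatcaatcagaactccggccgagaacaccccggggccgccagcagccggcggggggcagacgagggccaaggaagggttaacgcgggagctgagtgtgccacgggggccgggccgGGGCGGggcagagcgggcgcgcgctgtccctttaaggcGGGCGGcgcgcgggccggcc
Smad6 (chr9:64022060-64022309, minus strand): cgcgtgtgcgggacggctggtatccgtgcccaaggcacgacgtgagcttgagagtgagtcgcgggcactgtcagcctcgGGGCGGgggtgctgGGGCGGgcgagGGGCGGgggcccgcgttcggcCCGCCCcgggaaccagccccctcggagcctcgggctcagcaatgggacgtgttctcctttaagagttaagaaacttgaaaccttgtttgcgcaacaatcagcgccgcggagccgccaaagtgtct

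Axin2 and Lef1 were the Wnt target genes nearest to a shared position, out of 37 listed targets with a matched symbol (5.41%, against 1.2% of all protein-coding genes). Axin2 encodes a scaffold of the β-catenin destruction complex and is a feedback gene of the pathway. Its shared position lay on chromosome 11, with the β-catenin peak at 108920363 to 108920531 and the Pygo2 peak at 108920340 to 108920506. The peaks overlapped by 144 bp, and the β-catenin centre lay 98 bp downstream of an annotated Axin2 start site, although the nearer end of the gene as a whole was 2.62 kb away. The region within 50 kb of Axin2 held 2 β-catenin peaks and 3 Pygo2 peaks, of which 1 pair overlapped. Lef1 encodes a DNA-binding partner of β-catenin. Its shared position was on chromosome 3, 4.28 kb upstream of the start site, with an overlap of 127 bp between 131105935 and 131106061. Other targets were nearest to β-catenin peaks without a Pygo2 overlap: Ccnd1, Lgr6, Mycn, Tnfrsf19 and Znrf3, and Axin2 had such a peak as well.

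Among 77 Wnt pathway genes, from ligands to nuclear cofactors, 1 was the nearest gene of a shared position (1.30%), near the 1.2% of all protein-coding genes. This was Ssbp2, which encodes a single-stranded DNA-binding protein that works with LDB adaptors. Its start site on chromosome 13 lay 406 bp from the β-catenin centre, with an overlap of 155 bp. Of the same 77 genes, 3 (Ctnnb1, Sfrp1 and Tle3) were nearest to a β-catenin-only peak (3.90%, against 3.48% of all genes) and 36 to a Pygo2-only peak (46.8%, against 23.1% of all genes). Dact3, a gene of the Dact family of dishevelled-binding proteins that was outside the list and was picked after its values were seen, had 2 shared positions. The β-catenin centres were 0.798 kb upstream and 5.12 kb downstream of its start on chromosome 7. Cby1, which encodes a β-catenin antagonist and was also picked after its values were seen, had a shared position on chromosome 15. The β-catenin centre lay 49 bp inside the gene and 75 bp upstream of an internal start site, with an overlap of 86 bp. Ends of 2 genes lay within 1 kb of this centre, and the position also met the start site window of Fam227a.

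Among 69 heart development genes, Smad6, Cited2 and Crip2 were nearest to a shared position, all within 1 kb of a gene end. Smad6 encodes an intracellular inhibitor of BMP signalling. Its β-catenin centre lay 90 bp downstream of a start site and its Pygo2 centre 51 bp away from the β-catenin centre, and the window of 50 kb held 7 Pygo2 peaks and 1 β-catenin peak. Cited2 encodes a CBP/p300-binding co-regulator that the outflow tract needs in mice. Its peaks overlapped by 159 bp, 0.892 kb upstream of the start on chromosome 10, with 1 peak of each protein in the window. Crip2 encodes a LIM-domain protein of the cardiovascular system. Its β-catenin peak on chromosome 12 spanned 113139928 to 113140096, centred 224 bp upstream of the start, and the overlap of 125 bp covered 111 of the 250 bases printed above. A further 10 of the 69 heart genes were nearest to a β-catenin-only peak, among them Bmp7, Fgf10, Jag1, Nrp1 and Tbx18.

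Of the 30 neural crest genes, Snai2 was nearest to a shared position (3.33%), and of the 56 arch patterning genes Pbx3 and Msx1 were (3.57%). The share of all protein-coding genes was 1.2%. β-catenin-only peaks were nearest to 13.3% and 8.93% of these lists, against 3.48% of all genes and 10% of 20 hepatocyte genes. Pygo2-only peaks were nearest to 53.3% and 55.4%, against 23.1% of all genes. Snai2 encodes a zinc finger repressor of migrating crest cells. Its β-catenin peak at 14705611 to 14705779 on chromosome 16 was centred 157 bp outside the gene and overlapped the only Pygo2 peak within 50 kb by 101 bp. Pbx3 and Msx1 encode homeodomain proteins of arch patterning, and their shared positions were distant, 78.2 kb from an end inside Pbx3 and 71.4 kb outside Msx1. Smad6 was the only gene of 68 on the list of BMP, FGF, Hedgehog and Notch signalling nearest to a shared position (1.47%), again near the share of all genes. Disp1, needed for the release of Hedgehog ligands and picked after its values were seen, had a shared position 194 bp upstream of an internal start site.

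Lists of markers of cell types that the arches could also hold, of hepatocytes and of Hox genes were too short to set apart from the 1.2% of all genes. None of the 25 pharyngeal epithelium, 20 endothelium, 20 blood, 18 arch muscle, 20 hepatocyte or 39 Hox cluster genes was the nearest gene of a shared position. Of 22 neuronal genes 1 was, Pou4f1, at 125 kb. Peak lists hold no expression values, so the identity of the dissected tissue was not checked from them.

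Counts over the gene lists stood beside 1.20% of all protein-coding genes, 262 of 21896, that were the nearest gene of a shared position. With 9 of 63 genes, or 14.3%, replication-dependent histones had the highest share of the 20 lists. Genes of AP-1 and the immediate early response followed with 3 of 34 (8.82%), and chromatin regulators with 5 of 67 (7.46%). These counts depend on the nearest-gene rule, since within 1 kb of a gene end the immediate early list had 1 gene (Zfp36l1, not among the 3) and the chromatin list 3. The Wnt targets stood at 5.41%, the heart genes at 4.35%, and the Wnt components at 1.30%, near the share of all genes. The same lists were nearest to Pygo2-only peaks at 63.5% for histones, 55.9% for immediate early genes, 43.2% for Wnt targets and 50.7% for heart genes, against 23.1% of all protein-coding genes. β-catenin-only peaks had 11.1% of histones, 8.82% of immediate early genes, 16.2% of Wnt targets and 14.5% of heart genes as nearest genes, against 3.48% of all. The 20 hepatocyte genes, a negative control list, stood at 10% for β-catenin-only peaks (Cps1 and Cyp2e1) and at 5% for Pygo2-only peaks. Small lists move by several percent with 1 gene, and no test was made on these shares.

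**Figure D1:**
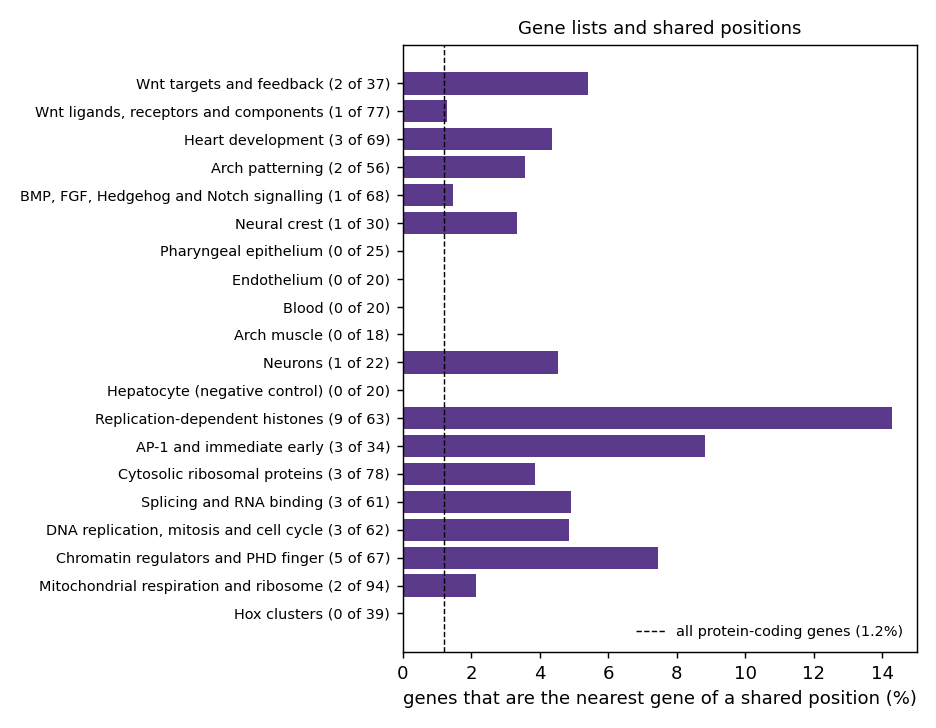
Bars give the percentage of the matched genes of each list that were the nearest protein-coding gene of a shared position, with counts beside the names, and the dashed line the percentage over all protein-coding genes. Replication-dependent histones stand highest at 14.3%, and 6 lists of other cell types or Hox genes are at 0.

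Histone genes carried shared positions over their promoters. Replication-dependent histone genes lie in clusters, are transcribed in S phase and encode the core and linker histones. Of all protein-coding genes 0.786% had a shared position within 1 kb of an end, and of the 63 histone genes 12 did. These 12 genes rest on 8 positions, because histone genes are closely packed. Ends of 3 genes lay within 1 kb of the position at H2bc21, and ends of 2 genes at H3c8 and at H2ac11. Of the 9 positions nearest to a histone gene, 8 were within 1 kb of a gene end, 7 on chromosome 13 and 2 on chromosome 3. H4c3 had its β-catenin centre 95 bp upstream of the start, H3c8 123 bp, H2ac11 62 bp, H2ac4 39 bp and H4c11 2 bp. The overlap ran from 24 bp at H2bc21 to 154 bp at the position nearest to H4c8. The position at H2ac11 also met the opposite window of H2bc11, since the pair is transcribed from a common promoter region. H4c11 and H4c12 shared 226 of 236 aligned upstream bases (95.8%), and whether reads from such copies can be told apart was not tested. The capitals in the sequences above hold CCAAT or its reverse complement, ATTGG, at H4c3, H3c8 and H2ac11. CCAAT occurred in 6 of the 8 histone windows met by shared positions and in 49 of all 59 histone windows.

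Several other lists held from 2 to 5 nearest genes. Jund, Fosb and Zfp36 were the immediate early genes. Jund and Fosb encode AP-1 subunits, and Zfp36 encodes an mRNA decay factor. At Jund the peaks overlapped by 30 bp, 1.09 kb downstream of the start of this short gene. At Zfp36 the overlap was 101 bp, 1.10 kb outside the gene, and at Fosb 112 bp at a distance of 16.5 kb. The chromatin regulators were Men1, a subunit of H3K4 methyltransferase complexes, with a β-catenin centre 74 bp upstream of the start, Smarca4, the BAF complex ATPase, at 266 bp, and Phf23, a PHD finger gene, at 246 bp. Arid1b and Bcl11a, which encode BAF subunits, were the nearest genes only at 158 kb or more. The cell cycle genes were Aurkb, Mus81 and Trp53, none of them with an overlap of 50% of the β-catenin width. The peaks at Trp53 touched at 1 bp, 973 bp downstream of a start. The RNA-binding protein genes were Cirbp, Ptbp1 and Hnrnpa1, with starts 176 bp, 224 bp and 399 bp from the β-catenin centre. Rps12 and Rplp1, which encode ribosomal proteins, were also nearest to a shared position. Of 94 genes of mitochondrial respiration and ribosomes, 2 were, Ndufc1 and Mrpl52.

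Shared positions lay at gene ends in 140 of 273 cases (51.3%, interval 45.4 to 57.2%), against 232 of 806 β-catenin-only peaks (28.8%, interval 25.8 to 32.0%). Pygo2-only peaks stood between them at 45.5%. Inside genes and over 1 kb from an end lay 70 shared positions (25.6%), against 36.4% of the β-catenin-only peaks. Intergenic were 63 shared positions (23.1%), against 34.9%. The odds ratios were 0.604 inside genes and 0.560 between genes (two-sided Fisher's exact test, adjusted p = 0.00139 and 0.000499). Among peaks at gene ends, 2 or more gene ends within 1 kb were found at 20.7% of shared positions, against 16.8% of β-catenin-only peaks (Fisher's exact test, odds ratio 1.29, Woolf interval from 0.758 to 2.21, adjusted p = 0.406). Of the shared positions, 34 were over 50 kb from any protein-coding gene end (12.5%), against 23.4% of the β-catenin-only and 13.7% of the Pygo2-only peaks. The odds ratio of a gene end for shared over β-catenin-only peaks was 2.60 (95% Woolf interval from 1.96 to 3.45; two-sided p = 3.67e-11 by Fisher's exact test; Benjamini-Hochberg adjusted p = 1.83e-10 over 5 comparisons). This test compares peaks of 1 library and has no replicate check, and peaks near each other are not independent. Shared positions were selected as overlapping Pygo2 peaks, so the test does not set them apart from Pygo2 peaks in general.

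**Figure D2:**
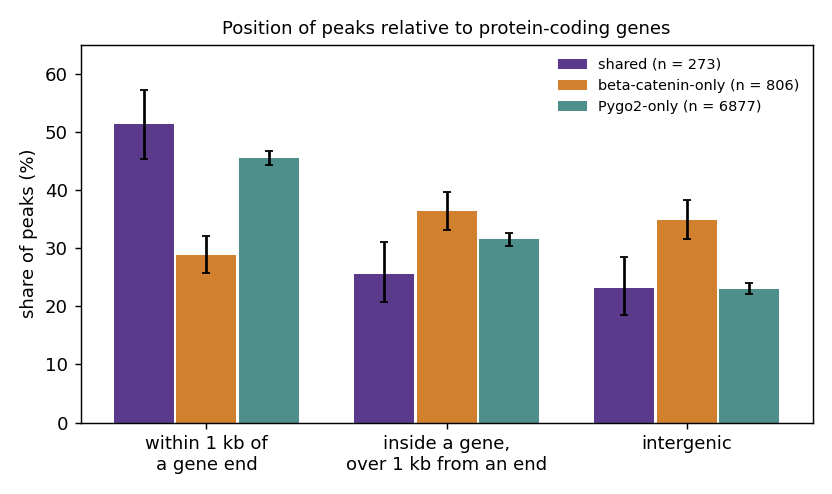
Bars give the percentage of shared, β-catenin-only and Pygo2-only peaks within 1 kb of a gene end, inside genes and in intergenic sequence, with 95% Wilson intervals. Shared positions are at gene ends in 51.3% of cases, β-catenin-only peaks in 28.8% and Pygo2-only peaks in 45.5%.

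Strand and start sites, from a table of promoter windows for 17491 protein-coding genes, separated the starts of genes from their 3′ ends. Of the 140 positions at gene ends, 112 had a nearest gene with a known strand, and 105 of these were nearer to its start than to its 3′ end. The 7 others were nearest to the 3′ ends of Gm52006, Pip5kl1, Uba7, Fhl3, Gm46933, Rasip1 and a, and 2 of them lay within 1 kb of the start of another gene, Zfp36l1 or G3bp2. Including internal starts, 125 of 264 shared positions on chromosomes with such windows were within 1 kb of a start (47.3%), against 215 of 786 β-catenin-only peaks (27.4%). Of the Pygo2-only peaks, 2814 of 6726 were (41.8%). The odds ratio for shared over β-catenin-only peaks was 2.39, with a Woolf interval from 1.79 to 3.19 (two-sided Fisher's exact test, p = 3.90e-09, adjusted p = 9.75e-09). A further 9 shared positions were on a chromosome with no window. Of the 125, 19 were over 1 kb from any gene end, so that the gene end rule alone had put them inside genes or between them. They include Axin2, Cirbp, Ptprs, Ptpa, Zmiz1, Zmynd8, Stag1 and Kifap3.

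Around these starts most peak centres lay upstream, for shared positions and for the other peaks. The β-catenin centres had a median of -118 bp (quartiles -224 and 26 bp), and 86 of 125 were upstream. The Pygo2 centres of the same positions had a median of -88 bp (quartiles -226 and 27 bp), and 87 were upstream. Of the β-catenin-only peaks 130 of 215 were upstream (median -105 bp), and of the Pygo2-only peaks 1704 of 2814 (median -49 bp). The Pygo2 centre was the nearer to the start at 67 positions and the β-catenin centre at 57. In distance without regard to side, the shared β-catenin centres had a median of 153 bp, against 277 bp for the β-catenin-only peaks within 1 kb of a start. Pygo2-only peaks had a median of 140 bp. Start sites on both strands within 1 kb were found at 14 of the 125 shared positions, at 28 of the 215 β-catenin-only peaks and at 334 of the 2814 Pygo2-only peaks. Among the closest positions to a gene end were those at H4c11 and Cactin (2 bp), Haus8 (6 bp), Gm46294 (9 bp), Rab33b and Atg2a (10 bp each), Cdkl3 and H2bc21 (11 bp each), Cbwd1 (12 bp), and Hmox1 (15 bp).

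**Figure D3:**
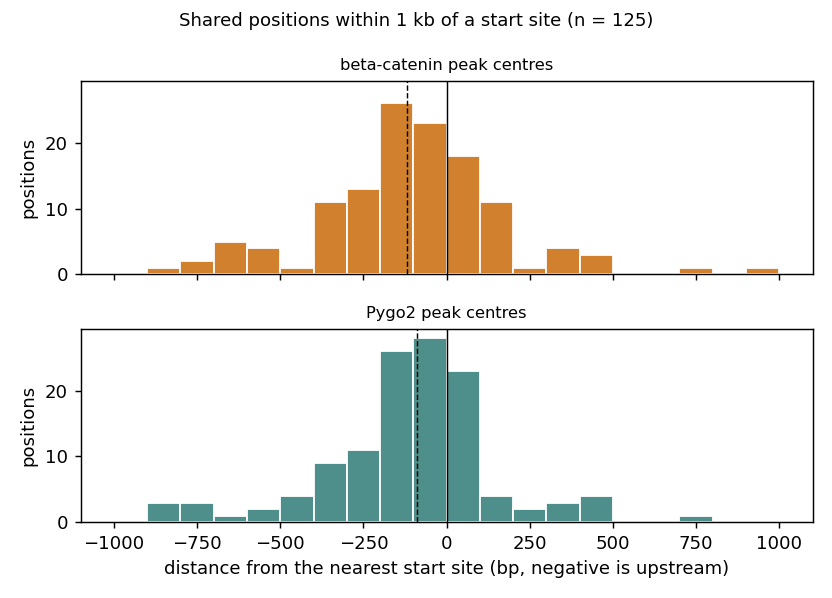
Histograms give the distance of β-catenin centres (upper panel) and Pygo2 centres (lower panel) from the nearest start site for the 125 shared positions within 1 kb of one, in bins of 100 bp. The dashed medians stand at -118 bp and -88 bp, both upstream of the start at 0, and the Pygo2 centre at Trp53, 1140 bp downstream, is beyond the bins.

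The windows of 300 bases from 250 before to 50 after a start were read for base composition and motifs. Shared positions overlapped 106 windows of 100 genes. Their median GC content was 61.3%, against 62.8% for windows met by β-catenin-only peaks, 62.0% for windows met by Pygo2-only peaks and 56.3% for all 21237 windows. A ratio of observed to expected CpG of at least 0.6 was found in 86.8% of the shared windows, in 86.6% of β-catenin-only, 87.0% of Pygo2-only and 47.7% of all windows. The core of TCF/LEF sites, CTTTGNT on either strand, was in 12 of the 106 shared windows (11.3%, interval 6.60 to 18.8%), against 12.5% of β-catenin-only, 12.3% of Pygo2-only and 16.9% of all windows. The genes with a match were Disp1, Bpnt1, Ptbp1, Cnpy2, Ube2b, Crip2, Ptpa, Ndufc1, Rtkn, Adpgk, Spg21 and Amotl2. Whole windows were searched, so a match need not lie inside the peaks, and at Crip2 it lay outside both peaks. The window of Axin2 had none, which says only that these letters were not in this stretch.

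Of the other motifs, 5 had a higher share in the shared windows than in all windows by more than 1 percentage point, and none was compared by a test. GGGCGG was in 62.3% of shared windows, 71.4% of β-catenin-only, 70.6% of Pygo2-only and 46.2% of all. CCGGAAG, a core of ETS sites, was in 19.8% of shared windows and 11.6% of all, and the NRF1 site in 14.2% and 6.38%. AAGATGG, a core of YY1 sites, was in 11.3% and 6.24%, TGACGTCA, the cyclic AMP response element, in 4.72% and 2.24%, and CACGTG, an E-box, in 8.49% and 7.84%. CCAAT was in 36.8% of shared windows and 38.2% of all, TATAAA in 6.60% and 12.6%, and TGANTCA, the AP-1 site, in 3.77% and 6.99%. The T-box core AGGTGTGA was in 0 of 106 shared windows, which allows a share of up to 2.83% by a limit of 3 counts (Wilson upper bound 3.50%), and in 1.15% of all. The ETS core was in 25.7% of Pygo2-only windows and 19.6% of β-catenin-only windows, and NRF1 in 14.3% and 12.5%. In the same order, AAGATGG was in 9.41% and 10.7%, TGACGTCA in 3.46% and 4.46%, and CACGTG in 11.5% and 10.7%. TATAAA was in 5.99% and 8.04%, and TGANTCA in 3.55% and 3.57%. All motifs were searched on both strands, and E-box and CRE matches can overlap other motifs. A match is a string of letters and not a bound site.

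The peaks of the proteins coincided closely at many positions. All β-catenin peaks were 169 bp wide and all Pygo2 peaks 167 bp, and each shared position joined exactly 1 peak of each. The overlap had a median of 125 bp (quartiles 69 and 154 bp), and 195 of 273 positions (71.4%) overlapped by at least 50% of the β-catenin width. The peak centres were within 20 bp at 79 positions and within 50 bp at 151, and their median distance was 43 bp. That distance was 51.5 bp at gene ends, 29 bp inside genes and 40 bp in intergenic sequence. Just inside the limit of 1 bp stood Trp53 (1 bp of overlap), Prex1 and Hace1 (2 bp each). Just outside it were β-catenin-only peaks at Irf3, Carm1 and Pgpep1, with gaps of 2, 4 and 5 bp to a Pygo2 peak. Of the 806 β-catenin-only peaks, 115 had a Pygo2 centre within 500 bp.

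The positions listed first by the authors' caller had closer centres than the rest. All peaks carry the same deposited score of 1, which leaves list position as the only trace of rank. Within the lists runs of peaks follow the chromosomes (74.1% of neighbours in the β-catenin list and 91.8% in the Pygo2 list are on the same chromosome). Small differences of position are therefore not read. The first shared position at a gene end, that of H4c3, was 39th in the β-catenin list, and 25 shared positions were listed before it, a division chosen after the values were seen. At 24 of these 25 the centres of the proteins were within 20 bp, against 27 of the 108 later positions that were also over 1 kb from a gene end. The division itself keeps gene ends out of the 25, so their distances to genes are not compared. Their places in the Pygo2 list were scattered, as at Acacb (2nd), Plxdc2 (505th), Bcl11a (1199th), Gak (2663rd) and Prkdc (7063rd of 7150). The remaining position of the 25, 3.81 kb from Aurkb, had centres 99 bp apart.

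**Figure D4:**
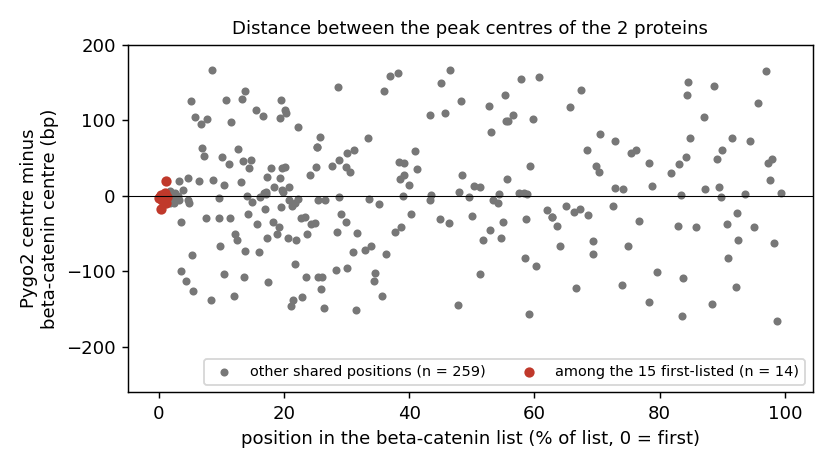
Points give, for each shared position, the Pygo2 centre minus the β-catenin centre in bp against its place in the β-catenin list in percent, with those among the 15 first-listed peaks in red. The red points lie within 20 bp of 0, while the others reach -166 and 167 bp.

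A Pygo2 overlap was found for 43.9%, 42.6% and 38.0% of β-catenin peaks in the 3 leading steps of 10% of the list, and for 13.9% to 25% in each later step. Of the 273 positions, 154 were in the first 50% of both lists and 33 in the last 50% of both. The Pygo2 peaks of the shared positions had a median place of 18.2% in that list at gene ends, 32.2% inside genes and 31.8% between genes. Pygo2-only peaks also came earlier at gene ends (35.7%) than inside genes (63.4%) or between genes (65.6%). Places in the lists were not used to select the positions and are given as a description. The positions with the lowest sum of both places were at Acacb and Ybx3, followed by 8 others. These were H4c3, the position at the tRNA gene near Aurkb, Jund, Rras, Phf23, Mus81, Cirbp and Ptbp1, not in order of the sum. Phf23 was 55th for β-catenin and 7th for Pygo2, and Ptbp1 75th and 51st. Rras, which encodes a small GTPase, had its position 265 bp upstream of the start.

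**Figure D5:**
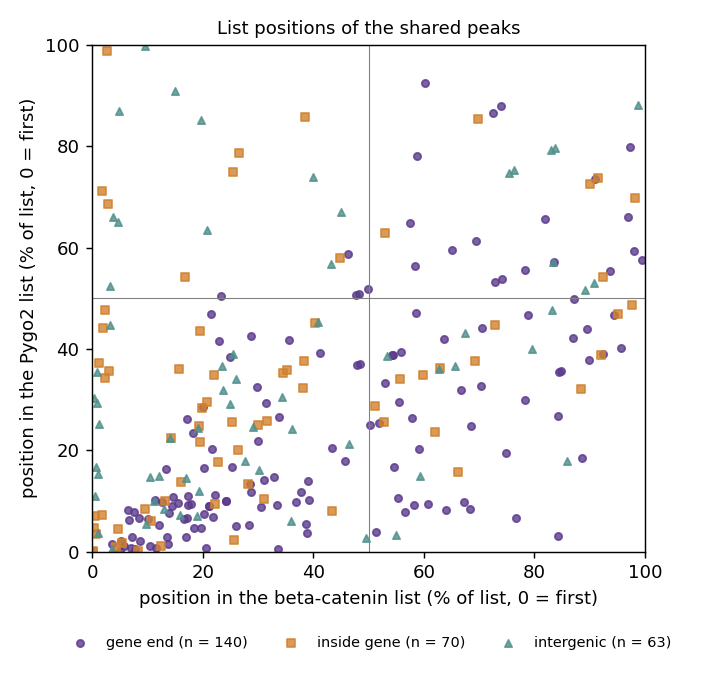
Each point is a shared position, placed by its position in the β-catenin list (horizontal axis) and in the Pygo2 list (vertical axis) in percent of the list, with 0 as the first peak and lines at 50%. Gene ends, insides of genes and intergenic positions are marked, and 154 of 273 points lie below 50% on both axes.

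Most positions stood alone. Only 6 pairs lay within 10 kb of each other, at Ube2v1, Tnrc18, Ptms, Dact3, Chd2 and Uba7. At Ptms, which encodes the nuclear protein parathymosin, the β-catenin centres were 278 bp and 1.83 kb upstream of the start on chromosome 6. At Chd2, a chromatin remodeller gene, they were 146 bp and 3.65 kb from the same end of the gene on chromosome 7, both inside it. Ube2v1, which encodes a ubiquitin-conjugating enzyme variant, had them 152 bp and 2.44 kb upstream. The share of β-catenin peaks that were shared ran from 4 of 35 on chromosome 12 (11.4%, interval 4.54 to 26%) to 22 of 58 on chromosome 10 (37.9%, interval 26.6 to 50.8%). These are the extremes of all chromosomes, picked after their values were seen, and no test was made.

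Genes for small RNAs accounted for few positions. A tRNA gene lay within 1 kb at 4 shared positions (1.47%), against 19 β-catenin-only peaks (2.36%) and 76 Pygo2-only peaks (1.11%). At 3 of the 4 the peak centre was 11 to 18 bp from the tRNA gene: n-TWcca7 near Aurkb, n-TGgcc6 at the intergenic position 13.8 kb from H4c8 and n-TFgaa7 near Dhx37. The tRNA gene n-TDgtc16 was 108 bp away, next to Tmpo. The positions named above for Aurkb and H4c8 are thus nearer to tRNA genes than to these protein-coding genes. Rn7sk, which encodes the 7SK RNA that holds the elongation factor P-TEFb inactive, lay 893 bp from a shared position, and Snord104 31 bp from another. At 27 shared positions (9.89%) an end of a lncRNA gene lay within 1 kb, against 7.44% of β-catenin-only and 9.89% of Pygo2-only peaks.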

How the data were processed

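The BA2 peak lists of β-catenin and of Pygo2 (ChIP-seq) were analysed. Per the file headers, the authors called peaks with HOMER findPeaks in factor style against the IgG BA1 library, 1 library per list, at a false discovery rate of 0.001, requiring 2-fold enrichment over the control and over the local region. The headers name IgG BA1, although the names of the lists mention BA2. Per the submitters' processing notes, Bowtie, Bowtie2, HOMER and mm10 were used, with versions not given in the sources used here. The deposited score is 1 for every peak, and the deposited coordinates are the measurement. Tags per peak were not analysed here.

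Coordinates are 1-based. Each position was given to the protein-coding gene (21896 genes, RefSeq, GRCm38.p6, whose chromosomes are those of mm10) whose nearer end was closest to the centre of its β-catenin peak. Start sites, strand and sequences came from RefSeq promoter windows, which cover 17491 of these genes. Gene lists held 934 symbols, of which 929 matched. Python 3.11.15, NumPy 2.4.6, pandas 2.3.3, SciPy 1.17.1 and Matplotlib 3.10.9 were used. The overlap and distance functions were tested on simulated data. Shares of peaks were compared by Fisher's exact test. The members and gene lists were chosen with earlier results of these data known. Named genes were the markers given with the regions, up to 8 nearest genes per list, the 10 positions with the lowest summed list position, pairs within 10 kb and the positions closest to gene ends. Other overlaps, windows, gene tables and parts of the lists were tried as alternatives. Some results are not reported here.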

Additional observations from a re-analysis of the deposited data

How the results depend on the processing

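The count of 273 shared positions was 195 when the overlap had to reach 50% of the β-catenin width, 388 when centres within 500 bp were joined, 216 with the first 50% of the Pygo2 list and 178 with the first 50% of the β-catenin list. The last of these removes members by construction, since the list is shortened. The excess of gene ends over β-catenin-only peaks kept its direction and passed 0.05 in all 8 alternatives, the last 3 chosen after seeing the data. Its odds ratio was 3.31 and 2.60 with windows of 500 bp and 5 kb, 2.60 with all annotated genes, 2.08 with the stricter overlap, 1.83 within the first 50% of the β-catenin list, 2.39 with start sites, 2.91 without the 15 first-listed peaks and 2.63 with 1 peak per 10 kb. The 15 first-listed peaks include 14 shared positions and were picked with their distances to genes known, so the value without them is no independent check. Over all lists, 38 distinct genes were nearest to a shared position, 32 had one within 1 kb, 28 with the stricter overlap, and 115 within 50 kb, where 55 of the 63 histone genes count because their clusters share peaks. By list, the count moved by over 1.5 times in 14 of 20 lists at 50 kb, in 5 at 1 kb and in 3 with the stricter overlap. At 1 kb the immediate early list fell to 1 gene, the chromatin list to 3 and the Wnt targets to 0, and with the stricter overlap the chromatin list fell to 3 and the cell cycle list to 0. No paired analysis was possible because each protein has 1 library in the lists used here. With a mean of about 15 tags a peak, a peak missing from either list may be a matter of depth, so β-catenin-only peaks are not shown to lack Pygo2.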
